A study of Mus musculus with 16 samples.

Results

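The mouse mitochondrial genome encodes 37 genes, and all 37 were listed in the gene table of a comparison of mouse hearts with and without cardiomyocyte Cre. They were chosen by their symbols, which begin with mt-, and they are 13 protein genes, 2 ribosomal RNA (rRNA) genes and 22 transfer RNA (tRNA) genes among 54232 listed genes. The tested hearts came from 13-week-old C57BL/6 mice homozygous for a loxP allele and carrying Cre recombinase under the promoter of Myh6, a heart muscle myosin gene (genotype Loxp/Loxp, Cre+). They gave 4 libraries, replicates 1 to 3 from females and replicate 4 from a male. The control hearts came from mice of the same age and strain with the same loxP alleles and no Cre (Loxp/Loxp,Cre-), and gave 5 libraries, replicates 1 to 3 from females and replicates 4 and 5 from males. Since the controls carry the loxP alleles too and lack Cre, loss of the targeted gene and presence of the transgene cannot be told apart. The Myh6 promoter is active in cardiomyocytes, so the other cells of the heart are not the cells that Cre targets. One further Cre+ library was not analysed here, and the labels do not say whether the libraries stand for separate animals, so p-values measure the spread between these libraries.

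Cap2, the actin regulator named in the study's title, checks the genotype labels. It had 33, 60, 80 and 87 normalized counts in Cre+ libraries 1 to 4, against 342, 166, 186, 878 and 381 in control libraries 1 to 5, and the groups did not overlap. The log2 difference was -2.22 (standard error 0.36, limma adjusted p = 0.0161). The heart muscle markers Myh6, Tnnt2, Tnni3, Actc1, Myl2, Myl3, Ryr2 and Pln were present in every group, with a summed level of 220078 to 318987 normalized counts in Cre+ libraries and 240178 to 377359 in controls. Of the 8, 1 was lower in Cre+ hearts at an adjusted p under 0.05, Pln (limma adjusted p = 0.0333), beside 0.931% of all genes tested. Normalized counts are the authors' deposited whole numbers. Their sequencing depth is unknown.

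Mitochondrial DNA is a small circle that is transcribed on both strands into long precursor RNAs, and these are cut into single RNAs mostly at the tRNAs that lie between the other genes. Its protein genes encode core subunits of respiratory complexes I, III and IV and of the ATP synthase, complex V, while its rRNAs and tRNAs serve the translation of those proteins inside the organelle. All other subunits, and the proteins that copy, transcribe and process mitochondrial RNA, are made from nuclear genes. Heart muscle is rich in mitochondria, and mitochondrial transcripts make up a large part of its RNA. Most mitochondrial mRNAs, and the rRNAs, carry short poly-A tails. Mitochondrial RNAs are caught to differing degrees by mRNA kits that select for poly-A, such as the stranded TruSeq kit used here.

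Of the 37 genes, 27 were listed at 0 in every library and 10 had values. The genes at 0 were all 22 tRNA genes and 5 protein genes, namely mt-Co2 and mt-Co3 (subunits of cytochrome c oxidase, complex IV), mt-Atp6 and mt-Atp8 (the mitochondrial subunits of ATP synthase) and mt-Nd4l (a membrane subunit of NADH dehydrogenase, complex I). By complex, 6 of 7 complex I genes, the 1 complex III gene, 1 of 3 complex IV genes and 0 of 2 complex V genes had a value above 0. Complex IV is therefore represented by mt-Co1 alone, and complex V by no gene. These 0 values in hearts, for genes that every respiring cell uses, are given as listed and with no fold change.

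The 5 protein genes listed at 0 lie in a stretch of the mitochondrial genome that has a near-perfect copy in nuclear DNA. On chromosome 1, 7 annotated pseudogenes lie next to one another at chr1:24611535-24616197 (mm10, minus strand) and match chrM:6390-11042, a stretch of 4653 bases. Of the 13 protein genes 6 lie wholly inside that stretch. They are the 5 at 0 and mt-Nd3, which had 10 to 25 normalized counts. The other 7 protein genes lie outside it in whole or in part, and each had values. Identity to the copy was 100% over the 681 aligned bases of mt-Co2, the 678 of mt-Atp6, the 783 of mt-Co3 and the 294 of mt-Nd4l, and 99.71% over the 345 of mt-Nd3. mt-Atp8 has no annotated copy of its own there. The first 60 bases of mt-Co2 (chrM:7013-7072, plus strand) and of its copy Gm28661 (chr1:24615506-24615565, minus strand) show what the perfect match looks like. They stand beside the first 60 bases of mt-Nd3 (chrM:9459-9518, plus strand) and of its copy Gm28438 (chr1:24613060-24613119, minus strand), where the capital marks the 1 base that differs over the whole gene, at base 3. The sequences are those of GENCODE M21 transcripts on mm10, read 5′ to 3′ on the gene's strand.
mt-Co2: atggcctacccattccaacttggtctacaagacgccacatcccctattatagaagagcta
Gm28661: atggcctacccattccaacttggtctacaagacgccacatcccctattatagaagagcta
mt-Nd3: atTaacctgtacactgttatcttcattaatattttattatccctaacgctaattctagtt
Gm28438: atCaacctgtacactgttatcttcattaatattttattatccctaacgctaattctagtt

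The edges of the copy run through mt-Co1 and mt-Nd4, which both had high values. The copy covers the last 483 of the 1545 bases of mt-Co1, at 99.79% identity, and leaves 1062 bases outside it. It covers the first 876 of the 1378 bases of mt-Nd4, at 100% identity, and leaves 502 outside. The boundary in mt-Co1 is shown by bases 1054 to 1113 of the gene (chrM:6381-6440, plus strand) beside the start of the copy Gm29216 (chr1:24616138-24616197, minus strand), with the 6 differing bases in capitals, all near the 5′ end of the window.
mt-Co1: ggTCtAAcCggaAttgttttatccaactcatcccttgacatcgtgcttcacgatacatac
Gm29216: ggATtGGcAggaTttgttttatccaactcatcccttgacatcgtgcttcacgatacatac

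Of the 7 copies 5 were themselves at 0 in every library. Gm10925, the copy of mt-Atp6, had 1 normalized count in control library 2 and none elsewhere. Gm29216 had 554, 151, 150 and 348 normalized counts in Cre+ libraries 1 to 4, against 374, 728, 1757, 225 and 408 in control libraries 1 to 5. That is 0.270 to 0.571 per 1000 counts of mt-Co1 in Cre+ hearts and 0.318 to 0.550 in controls, so the groups overlapped. How reads that match both places were counted is not given in the sources used here, and its part in these values was not tested. Outside this stretch other nuclear copies are less alike: the closest annotated copy of mt-Co1, Gm13340 on chromosome 2, is 97.6% identical over 1545 bases, and that of mt-Cytb, Gm11410 on chromosome 4, is 92.9% identical.

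Neighbouring genes add a further limit. The table lists each gene by an interval that begins 200 bases before its annotated start for 53237 of 54165 genes found in GENCODE M21, and ends 200 bases after its annotated end for 53177 of them. On the compact mitochondrial genome these widened intervals overlap, and the intervals of 21 of the 22 tRNA genes lie wholly inside those of other mitochondrial genes on either strand, and those of 15 of the 22 if only genes on the same strand are counted. The 7 with bases of their own on their strand were at 0 too. mt-Nd3, mt-Nd4l and mt-Atp8 have 0 bases that belong to no other interval on either strand, mt-Atp6 has 237, mt-Co2 288 and mt-Co3 383, against 1143 bases for mt-Co1 and 1410 for mt-Nd5. The values of genes with a near-identical copy or with few bases of their own are uncertain, and comparisons between groups rest on the 10 genes above 0.

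The mitochondrial genes together took 52.7%, 31.5%, 23.0% and 33.9% of all normalized counts in Cre+ libraries 1 to 4, against 45.0%, 52.2%, 69.5%, 30.4% and 37.8% in control libraries 1 to 5. Cre+ library 3 was the lowest and control library 3 the highest, and the groups overlapped. The mean share was 35.3% ± 12.5 in Cre+ hearts (SD, n = 4) and 47.0% ± 15.0 in controls (SD, n = 5), a difference of -11.7 percentage points that is smaller than either SD. Without control library 3 the difference was -6.07 points, without Cre+ library 3 it was -7.60, and among females alone it was -19.8. Nuclear genes summed to 3960480 to 4044523 normalized counts in Cre+ libraries and to 3815980 to 3895699 in controls, higher in every Cre+ library than in every control. The values were normalized before deposit by a method not given in the sources used here. The narrow range of the nuclear sums therefore does not show which of the sums varied in the RNA. The mitochondrial sum was 0.298 to 1.11 times the nuclear sum in Cre+ hearts and 0.436 to 2.28 times in controls. In RNA from whole hearts, fewer cardiomyocytes, fewer mitochondria per cell and less RNA per mitochondrion cannot be told apart.

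**Figure D1:**
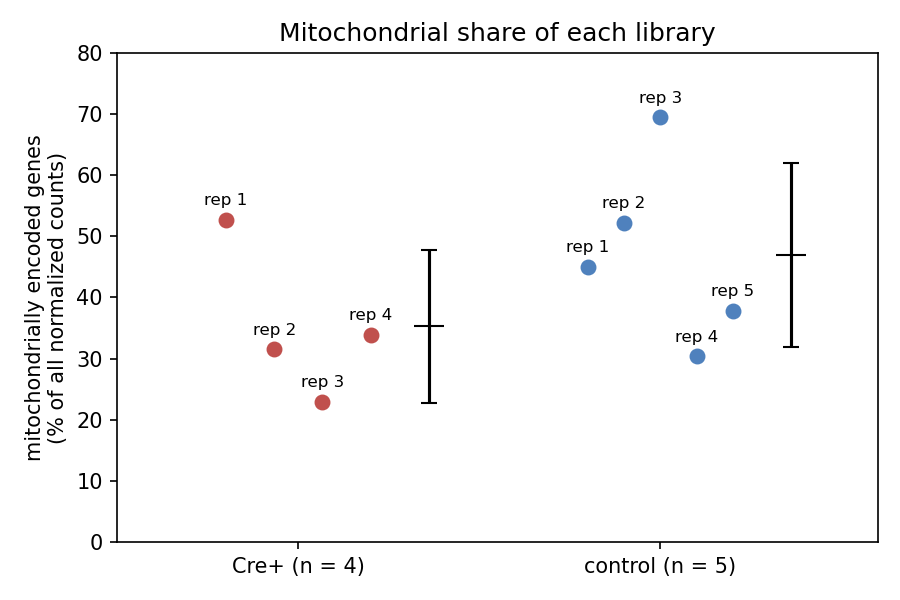
Share of all normalized counts (percent, y axis) taken by the mitochondrially encoded genes in each library, for Cre+ hearts (left, 4 libraries) and control hearts (right, 5 libraries), with group means and SD. The Cre+ libraries lie between 23.0% and 52.7% and the controls between 30.4% and 69.5%, so the groups overlap.

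Complex I, which takes electrons from NADH, was the complex with the most measured genes. mt-Nd1, a membrane subunit next to the site that binds quinone, had 527215, 234592, 171546 and 323328 normalized counts in Cre+ libraries 1 to 4, against 426705, 607459, 1240980, 221553 and 332020 in control libraries 1 to 5. mt-Nd2, a proton-pumping subunit, had 432889, 178623, 106296 and 183722 in Cre+ libraries, against 289676, 397091, 781264, 151084 and 203110 in controls. Both genes were highest in control library 3, and their groups overlapped. mt-Nd4, also a proton-pumping subunit, had 404254, 222684, 137869 and 233279 normalized counts in Cre+ libraries, against 281866, 369367, 736047, 121206 and 199966 in controls. mt-Nd5, the third of the large pumping subunits, had 407623, 140516, 93140 and 86422 in Cre+ libraries, against 257726, 332675, 601649, 200694 and 188647 in controls. For mt-Nd5 Cre+ libraries 2 to 4 lay below every control, and Cre+ library 1 lay above all controls except library 3. mt-Nd6, the only protein gene on the other strand of the mitochondrial DNA, had 1650, 848, 631 and 2294 normalized counts in Cre+ libraries, against 1599, 1913, 5542, 1384 and 2645 in controls. mt-Nd3 had 23, 10, 13 and 13 in Cre+ libraries, against 15, 15, 25, 12 and 15 in controls, and falls within the copied stretch. The groups of both genes overlapped.

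Complexes III and IV were each measured by 1 gene of large counts. mt-Cytb, cytochrome b and the mitochondrial subunit of complex III, had 1019899, 499549, 329938 and 552377 normalized counts in Cre+ libraries 1 to 4, against 668102, 892843, 1799924, 310062 and 489856 in control libraries 1 to 5. mt-Co1, the catalytic subunit of complex IV, had 1549642, 560282, 346250 and 609187 in Cre+ libraries, against 1176456, 1560641, 3196656, 673683 and 887276 in controls. The groups overlapped for both, but the genes were ordered differently. mt-Co1 in Cre+ libraries 2 to 4 lay below every control, while mt-Cytb in the same libraries did not.

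The rRNAs of the mitochondrial ribosome were low beside the 6 protein genes of large counts. mt-Rnr1, the 12S rRNA, had 13777, 5523, 2275 and 10267 normalized counts in Cre+ libraries 1 to 4, against 15090, 17332, 73963, 3335 and 11511 in control libraries 1 to 5. mt-Rnr2, the 16S rRNA, had 53058, 18457, 9997 and 30217 in Cre+ libraries, against 53249, 48106, 257490, 15220 and 42760 in controls. Control library 3 stood far above all others for both, and the groups overlapped. The ratio of mt-Rnr2 to mt-Rnr1 was 2.94 to 4.39 in Cre+ hearts and 2.78 to 4.56 in controls.

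None of the 10 genes passed the test between groups on the deposited scale. The test was limma on log2(value + 1) with a term for sex, fitted over 12141 genes with a mean of at least 10 normalized counts, and a gene with a Benjamini-Hochberg adjusted p under 0.05 is termed called. Of the mitochondrial genes 0 of 10 were called, beside 1.88% of all genes tested (228, of which 115 were higher, 0.947% of all genes tested, and 113 lower, 0.931%). That split moved with the scaling of the libraries, to 166 higher and 71 lower after TMM scaling on nuclear genes and to 433 and 78 after scaling to the sum of all genes, and 0 mitochondrial genes were called under either. At an unadjusted p under 0.05 the same fit marked 1 of the 10, mt-Nd5, beside 2687 of the 12141 genes tested.

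All 10 fitted log2 differences, Cre+ minus control, were below 0 with a median of -0.86, beside 58.5% below 0 and a median of -0.12 over all genes tested. The genes share a genome and their libraries, so their common sign is not 10 separate observations. mt-Nd5 had a log2 difference of -1.12 (95% confidence interval -2.12 to -0.11, limma adjusted p = 0.190), and mt-Co1 one of -1.10 (-2.24 to 0.05, adjusted p = 0.242). mt-Rnr1 and mt-Rnr2 had the lowest estimates, -1.35 and -1.33, with the widest standard errors, 0.74 and 0.69 (limma adjusted p = 0.304 and 0.276). Without control library 3 they stood at -0.73 and -0.71, nearer to 0 than mt-Nd5 (-0.90) and mt-Co1 (-0.78), without Cre+ library 3 at -0.78 and -0.86, and without Cre+ library 4 at -2.27 and -2.02. Cre+ library 4 was the only one from a Cre+ male. In the fit without it the sex term takes up the control males, so the group difference is that among females alone. mt-Nd1 stood at -0.83, mt-Nd2 at -0.78 and mt-Nd6 at -0.90, with adjusted p between 0.283 and 0.370, and without control library 3 at -0.47, -0.46 and -0.46. mt-Nd4 and mt-Cytb were nearest to 0 among the genes with large counts, at -0.43 and -0.46 (limma adjusted p = 0.618 and 0.600), and mt-Nd3 stood at -0.21. Without control library 3 mt-Nd4 stood at -0.10 and mt-Cytb at -0.13, without Cre+ library 3 at -0.11 and -0.15, and without Cre+ library 4 at -0.88 and -0.89. Scaling to the sum of all genes left 9 of the 10 estimates below 0 and moved their median to -0.53. It moved the median over all genes tested in the same direction, from -0.12 to 0.21. The intervals are too wide to show that the levels were alike in both groups.

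**Figure D2:**
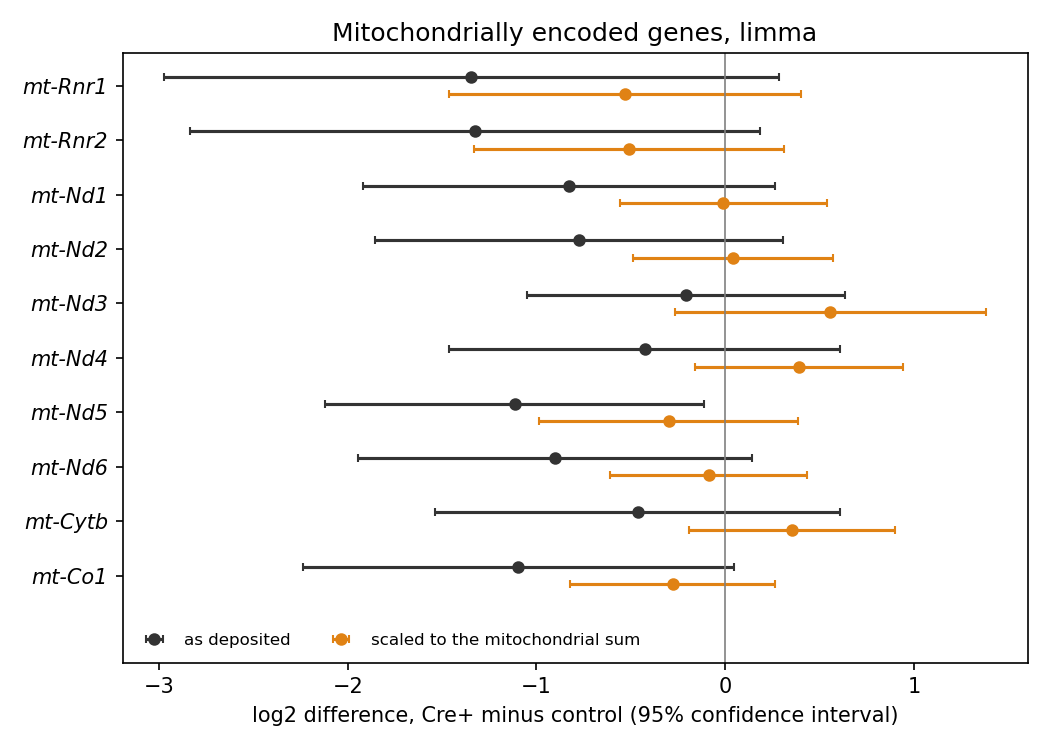
Log2 differences, Cre+ minus control, with 95% confidence intervals (x axis) for each of the 10 mitochondrial genes above 0 (y axis), on the deposited scale and after each library was scaled to its own mitochondrial sum. On the deposited scale all 10 estimates lie below 0 and 9 intervals include 0. After scaling, mt-Cytb, mt-Nd4, mt-Nd3 and mt-Nd2 lie above 0, the other 6 below, and all 10 intervals include 0.

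The make-up of the mitochondrial RNA can be described apart from its total, and 3 genes had separate groups in it. Taking each gene as a share of its library's mitochondrial sum, mt-Co1 made up 35.1%, 30.1%, 28.9% and 30.0% in Cre+ libraries 1 to 4, against 37.1%, 36.9%, 36.8%, 39.7% and 37.6% in control libraries 1 to 5. The mean share was 31.0% ± 2.79 in Cre+ hearts and 37.6% ± 1.19 in controls (SD, n = 4 and 5). Every Cre+ library lay below every control. Since no other complex IV gene was above 0, these are also the shares of complex IV.

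mt-Cytb moved the other way. It made up 23.1%, 26.8%, 27.5% and 27.2% of the mitochondrial sum in Cre+ libraries 1 to 4, against 21.1%, 21.1%, 20.7%, 18.3% and 20.8% in control libraries 1 to 5, with means of 26.2% ± 2.05 and 20.4% ± 1.20 (SD, n = 4 and 5). mt-Nd4 made up 9.17%, 12.0%, 11.5% and 11.5% in Cre+ libraries, against 8.89%, 8.74%, 8.47%, 7.14% and 8.48% in controls, with means of 11.0% ± 1.26 and 8.34% ± 0.70. For both genes every Cre+ library lay above every control, and Cre+ library 1 was the closest to the controls. Shares of a fixed sum are tied to one another: without mt-Co1 in the sum, mt-Cytb made up 35.7% to 38.8% in Cre+ hearts and 30.3% to 33.5% in controls and still separated the groups. For mt-Nd4 without mt-Co1 in the sum, Cre+ library 1 and control library 1 both stood at 14.1%, so that separation was lost.

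The remaining genes kept overlapping shares. Complex I as a whole made up 40.2% to 42.5% of the mitochondrial sum in Cre+ hearts and 38.7% to 41.0% in controls. mt-Nd1 averaged 13.7% ± 1.78 in Cre+ hearts and 13.8% ± 0.57 in controls, and mt-Nd2 averaged 9.33% ± 0.45 and 9.01% ± 0.29 (SD, n = 4 and 5). mt-Nd5 stood at 9.24%, 7.55%, 7.77% and 4.25% in Cre+ libraries 1 to 4, against 8.13%, 7.87%, 6.92%, 11.8% and 8.0% in control libraries 1 to 5. Its lowest and highest shares were both in libraries from males. The rRNA genes together made up 1.52%, 1.29%, 1.02% and 1.99% in Cre+ libraries, against 2.16%, 1.55%, 3.81%, 1.09% and 2.30% in controls, and control library 3 was the highest. mt-Nd6 stayed at or below 0.113% in all 9 libraries.

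**Figure D3:**
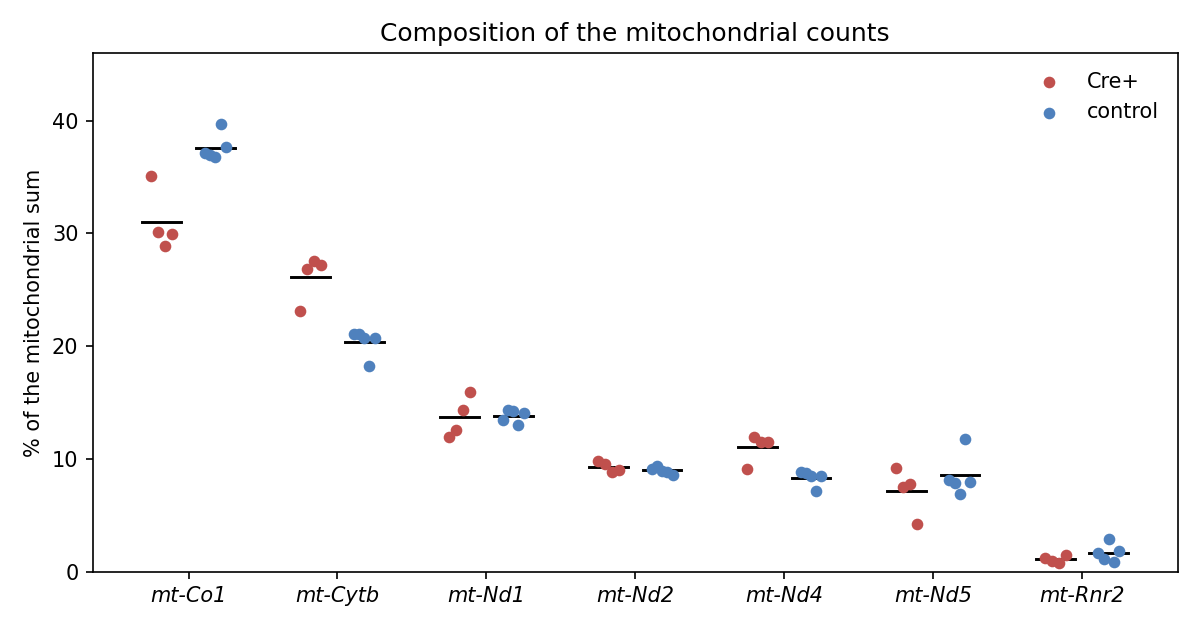
Share of the mitochondrial sum (percent, y axis) of each gene above 0 except mt-Rnr1, mt-Nd3 and mt-Nd6 in each library (points), with Cre+ hearts (4) left of control hearts (5) and lines at the group means. mt-Cytb and mt-Nd4 lie higher and mt-Co1 lower in all 4 Cre+ libraries than in all 5 controls, while mt-Nd1, mt-Nd2, mt-Nd5 and mt-Rnr2 overlap.

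The test across genes did not call these shifts. With the mitochondrial genes scaled to their library's mitochondrial sum and nuclear genes left as deposited, limma called 0 of 10 mitochondrial genes, beside 1.86% of the 12141 genes tested (0.931% in either direction). Beside 2687 of all genes tested on the deposited scale, 0 of the 10 had an unadjusted p under 0.05 on the scale of the mitochondrial sum. The log2 difference was -0.28 for mt-Co1 (95% confidence interval -0.82 to 0.27, limma adjusted p = 0.525), 0.35 for mt-Cytb (-0.19 to 0.90, adjusted p = 0.415) and 0.39 for mt-Nd4 (-0.16 to 0.94, adjusted p = 0.377). limma draws each gene's variance towards the spread of other genes at a similar level, and the part of this in these results was not tested. As background for the separate groups, 8.66% of all genes tested had groups that did not overlap on the deposited scale. On that scale none of the 10 mitochondrial genes had groups that did not overlap. No such share over all genes was taken for shares of a sum or for ratios of genes, so the separate groups there have no like background.

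Ratios between transcripts do not depend on any scaling of the library. The ratio of mt-Cytb to mt-Co1 was 0.658, 0.892, 0.953 and 0.907 in Cre+ libraries 1 to 4, against 0.568, 0.572, 0.563, 0.460 and 0.552 in control libraries 1 to 5. The ratio of mt-Nd4 to mt-Co1 was 0.261, 0.397, 0.398 and 0.383 in Cre+ libraries, against 0.240, 0.237, 0.230, 0.180 and 0.225 in controls. The ratio of mt-Nd2 to mt-Co1 was 0.279, 0.319, 0.307 and 0.302 in Cre+ libraries, against 0.246, 0.254, 0.244, 0.224 and 0.229 in controls. All 3 ratios were higher in every Cre+ library than in every control. The ratios of mt-Nd1, mt-Nd5 and mt-Nd6 to mt-Co1 overlapped between groups. mt-Nd4 and mt-Cytb kept a nearly fixed ratio to each other, 0.396 to 0.446 in Cre+ hearts and 0.391 to 0.422 in controls. A ratio shows unequal change, not which of its members differed, and the 3 ratios share mt-Co1.

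**Figure D4:**
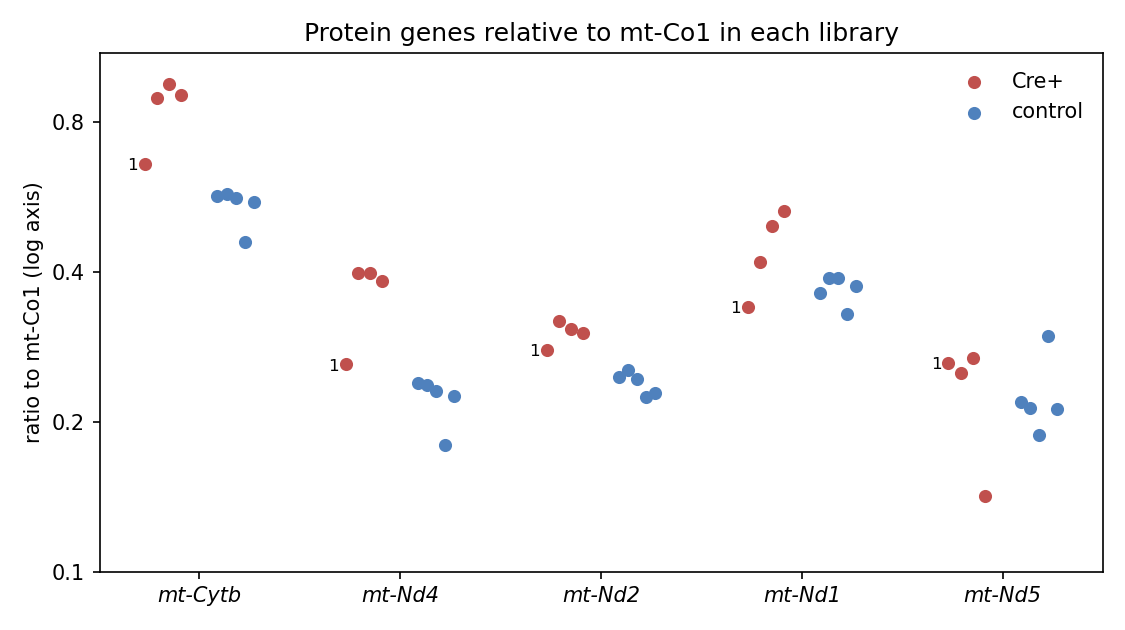
Ratios of normalized counts to mt-Co1 (y axis, log scale) for mt-Cytb, mt-Nd4, mt-Nd2, mt-Nd1 and mt-Nd5 in each library (points), with Cre+ hearts left of controls and Cre+ library 1 marked 1. For mt-Cytb, mt-Nd4 and mt-Nd2 all 4 Cre+ libraries lie above all 5 controls, with Cre+ library 1 the closest to them, and for mt-Nd1 and mt-Nd5 the groups overlap.

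Per kilobase of annotated transcript, the order of the levels was close to the same in both groups. mt-Co1 and mt-Cytb led, with 20.1% and 22.9% of the mitochondrial sum per kilobase in Cre+ hearts and 24.3% and 17.8% in controls, so that the first place went to mt-Cytb in Cre+ hearts and to mt-Co1 in controls. They were followed by mt-Nd1 (14.3% per kilobase in Cre+ hearts, 14.5% in controls), mt-Nd2 (8.99% and 8.68%), mt-Nd4 (8.01% and 6.05%) and mt-Nd5 (3.95% and 4.69%). mt-Rnr2 (0.714% and 1.07%), mt-Rnr1 (0.342% and 0.507%) and mt-Nd6 (0.120% and 0.136%) were the lowest of the genes outside the copied stretch. If mt-Co1 and mt-Nd4 are counted only over the bases outside the nuclear copy, mt-Nd4 stood at 22.0% per kilobase in Cre+ hearts and 16.6% in controls, and mt-Co1 at 29.2% and 35.4%. These last values apply if no read inside the copy was counted, which was not tested. They leave the comparison of the groups within each gene as it was.

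Markers of atrial muscle had high levels in some of the same libraries. The summed level of 6 atrial genes was 83867 to 175240 normalized counts in Cre+ hearts and 105 to 9895 in controls, with no overlap, though limma called 0 of the 6 and 0 of the 6 were at 0 in every library. Nppa, the atrial natriuretic peptide gene that stressed ventricles also express, made up most of that sum in Cre+ hearts. Without Nppa the other 5 genes summed to 491, 19839, 42523 and 43024 normalized counts in Cre+ libraries 1 to 4, against 334, 991, 7384, 105 and 314 in control libraries 1 to 5, and the groups overlapped. Myl7, the atrial myosin light chain, had 105, 6996, 10677 and 17044 normalized counts in Cre+ libraries 1 to 4, against 21, 344, 3014, 16 and 58 in control libraries 1 to 5. In Cre+ libraries 2 to 4 Myl7 was above every control, and in Cre+ library 1 it was below control libraries 2 and 3. Myl4 and Sln were also above every control in Cre+ libraries 2 to 4. Bmp10 and Stard10 were not: in Cre+ library 2 Bmp10 had 3 normalized counts, against 1 to 85 in controls, and Stard10 had 406, against 78 to 752. The ratio of mt-Cytb to mt-Co1 was 0.658 in Cre+ library 1 and 0.892 to 0.953 in Cre+ libraries 2 to 4. The part of atrial tissue in the ratios was not tested.

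**Figure D5:**
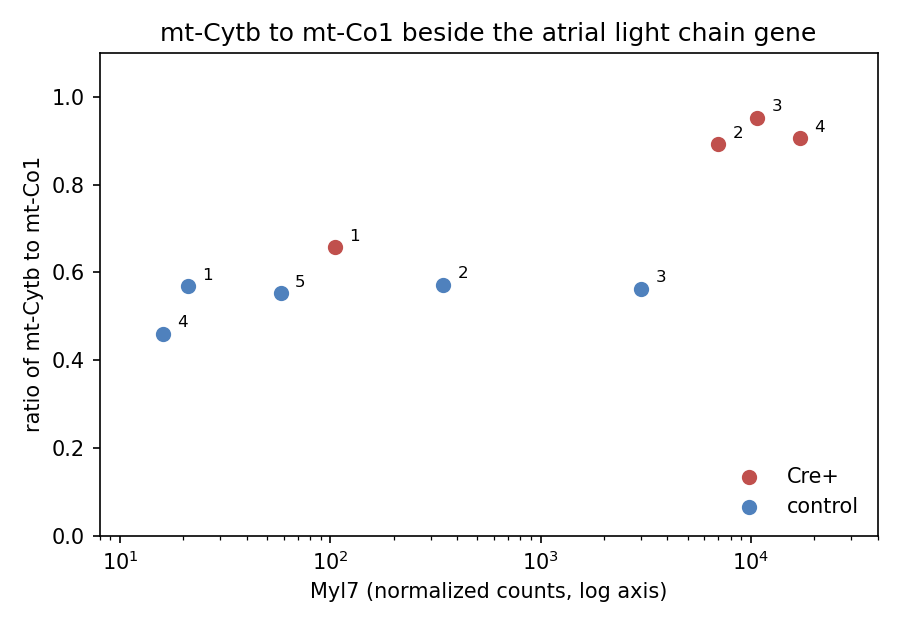
Ratio of mt-Cytb to mt-Co1 (y axis) against the normalized count of Myl7, 1 of the 6 atrial genes (x axis, log scale), in each of the 4 Cre+ and 5 control libraries. Cre+ libraries 2 to 4 have 6996 to 17044 counts of Myl7 and ratios of 0.892 to 0.953, Cre+ library 1 has 105 counts and a ratio of 0.658, and the controls have 16 to 3014 counts and ratios of 0.460 to 0.572.

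Other markers overlapped between the groups. The summed level of fibroblast markers was 8729 to 23779 normalized counts in Cre+ hearts and 2728 to 11301 in controls, and that of macrophage markers 2398 to 4653 and 1248 to 3355. Endothelial, smooth muscle, red cell and fat marker sums overlapped as well. Among markers, 1 of 6 smooth muscle and pericyte markers (Abcc9) was called lower in Cre+ hearts, beside 0.931% of all genes tested. Of 7 skeletal muscle markers only 3 passed the filter on the mean, and 2 of the 3 (Tnnt3 and Tnni2) were called higher, beside 0.947% of all genes tested. The median log2 difference of the 3 was 4.89. The filter uses the mean over all libraries, so a gene can pass it through high Cre+ values alone. The sums over all 7 overlapped too. The 12 RNAs without a long poly-A tail summed to 11 to 47 normalized counts in Cre+ hearts and to 1 to 253 in controls, with 7 of the 12 at 0 in every library. The 253 belonged to control library 3, the library with the highest share of mitochondrial rRNA (3.81%) and of mitochondrial genes (69.5%). Of the 253, 214 came from 1 gene, Rn7sk, the only 1 of the 12 that passed the filter on the mean. The capture of RNA with short tails in that library, and its part in the rRNA values, was not tested.

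The nuclear partners of these genes were close to all genes in the same fit. Of 79 listed nuclear subunits of complexes I to V 76 were tested, and 0 were called in either direction, beside 1.88% of all genes tested. Their median log2 difference was -0.09, beside -0.12 over all genes, with 51 of 76 below 0, beside 58.5% of all genes. Among those of complex IV, whose mitochondrial subunit mt-Co1 had the lower share, the median was -0.02 over 10 genes, and among those of complex III it was 0.08 over 9 genes. It was -0.08 over 36 genes of complex I and -0.15 over 17 of complex V. Over the 4 genes of complex II, which has no mitochondrially encoded subunit, it was -0.34. None of the 76 had groups that did not overlap, beside 8.66% of all genes tested. Control library 4 widened the range of the controls for some subunits, in both directions, and examples are named for their values. Ndufs1 had 6266 normalized counts there and 654 to 1660 elsewhere, and Uqcrc2 had 6644 and 872 to 2169. Ndufb7 had 957 there and 3541 to 10030 elsewhere, and Uqcrq had 1153 and 4224 to 12561. The part of that library in the results for the 76 was not tested.

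No gene was called either in the lists of genes that copy, transcribe and process mitochondrial RNA and of the nuclear factors that regulate mitochondrial genes. Of 56 listed genes 52 were tested and 0 were called, beside 1.88% of all genes tested. Their median log2 difference was -0.48, beside -0.12 over all genes, and 47 of 52 were below 0, beside 58.5% of all genes. The 8 heart muscle markers had a median of -0.43 in the same fit, so a low median was not particular to these lists. The median was -0.45 for 17 genes of transcription and replication, -0.49 for 25 genes of RNA processing and decay and -0.42 for 10 nuclear regulators. Tfam, which packages mitochondrial DNA and starts its transcription, had 68, 55, 82 and 75 normalized counts in Cre+ libraries 1 to 4, against 100, 88, 125, 243 and 123 in control libraries 1 to 5. Its groups did not overlap, with a log2 difference of -0.79 (standard error 0.27, limma adjusted p = 0.139). Polrmt, the mitochondrial RNA polymerase, had a log2 difference of -0.27 (adjusted p = 0.527), and Lrpprc, which keeps mitochondrial mRNAs stable and polyadenylated, one of -0.67 (adjusted p = 0.239), both by limma with overlapping groups. Ppargc1a, a coactivator that drives mitochondrial biogenesis, had 118, 189, 142 and 247 normalized counts in Cre+ libraries, against 567, 186, 229, 602 and 425 in controls, a log2 difference of -0.99 (limma adjusted p = 0.124) with overlapping groups. Control library 4 was the highest control for Tfam, Ppargc1a and Lrpprc (1461, against 281 to 551 in the other controls). It was not for Polrmt (103, against 137 in control library 1). For Polg, named for its values, it was the lowest control (251, against 289 to 452). The part of that library in the results for the 52 was not tested.

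In the 52, groups that did not overlap were found for 1 gene higher and 6 lower in Cre+ hearts, beside 3.87% and 4.79% of all genes tested, and apart from Tfam these genes are named because of their values. Rexo2, a mitochondrial nuclease that degrades very short RNAs, was the 1 higher, with 277, 441, 399 and 292 normalized counts in Cre+ libraries 1 to 4, against 188, 170, 166, 209 and 195 in control libraries 1 to 5. Its log2 difference was 0.90 (standard error 0.22, limma adjusted p = 0.0606). Beside Tfam the lower ones were Fastkd2 and Nsun4, which act on the mitochondrial 16S and 12S rRNA, Ptcd2, which in mice is needed for normal cytochrome b mRNA, and the transcription factors Esrrg and Gabpa. Ptcd2 had 236, 181, 148 and 147 normalized counts in Cre+ libraries, against 301, 293, 267, 321 and 258 in controls, with a log2 difference of -0.73 (limma adjusted p = 0.0946). Esrrg, an estrogen-related receptor that drives genes of oxidative metabolism, had 26, 31, 24 and 21 in Cre+ libraries, against 55, 78, 85, 382 and 56 in controls, with a log2 difference of -1.80 (limma adjusted p = 0.0856). Each of the 7 missed the threshold.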

How the data were processed

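Experiment B was prepared with the Illumina TruSeq RNA Stranded mRNA kit, per the labels' protocols. The authors deposited normalized read counts as whole numbers, used here as a score because the normalization is not given in the sources used here. STAR 2.6.0c, DESeq and mm10 are named in the submitters' processing notes without roles. No source used here gives the counting tool, its strand setting or its treatment of reads with several matches. Depth is unknown, so no count test was run and no counting interval is given.

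Genes with a mean of at least 10 were fitted with limma 3.58.1 (R 4.3.3; robust trend) on log2(value + 1), group and sex as terms, and Benjamini-Hochberg adjustment over all genes tested. Differences on this scale understate changes of low genes. A second fit divided the mitochondrial genes by their library's mitochondrial sum. The fits were tested on simulated data. Sums and shares over several genes carry no p. GENCODE M21 gave coordinates and transcripts, and nuclear copies were found with BLAST 2.17.0 and aligned with edlib 1.3.9.post1. Intervals in the table were compared with the annotation. All mitochondrial genes are accounted for, with values for protein and rRNA genes. From the lists, called genes and Polrmt, Tfam, Lrpprc and Ppargc1a are named by rule, and a few others, marked as such in the text, for their values. The members and lists were chosen with earlier results of these data known. In same-numbered libraries of the 2 groups, the deviations of genes from their group means correlated at 0.24, -0.11, 0.18 and 0.03. These libraries were not treated as pairs. Alternatives covered pseudocount, filter, scaling, sex, a replicate block, a covariate and each library left out.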

Additional observations from a re-analysis of the deposited data

Results flagged for a closer look

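In groups of 4 or 5 libraries, 13 values of mitochondrial genes stood apart from the rest of their group by Dixon's test at the 95% level, out of 58 groups of values tested, and chance flags about 1 in 20. The values are related, since shares and ratios use the same counts.

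Control library 3 stood apart in the counts of mt-Rnr1 (73963), mt-Rnr2 (257490) and mt-Nd3 (25), each above the other controls. Control library 4, from a male, stood apart in its make-up. It had the lowest control shares of mt-Nd4 (7.14%) and mt-Cytb (18.3%) and the highest of mt-Nd5 (11.8%), and its ratios to mt-Co1 were 0.180 for mt-Nd4, 0.460 for mt-Cytb and 0.298 for mt-Nd5. Cre+ library 1 stood apart from the other Cre+ libraries in the count of mt-Nd5 (407623, the highest), the share of mt-Cytb (23.1%, the lowest) and the ratio of mt-Nd4 to mt-Co1 (0.261, the lowest). Cre+ library 4, from a male, stood apart in its ratio of mt-Nd5 to mt-Co1 (0.142, the lowest).

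Without control library 4 the share of mt-Cytb differed by 5.26 percentage points and that of mt-Nd4 by 2.39, and without Cre+ library 1 they differed by 6.81 and 3.31, with no overlap of the groups in any of these.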

How the results depend on the processing

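Depth is unknown and the groups hold 4 and 5 libraries, which limits what the fits can call. No mitochondrial gene was called under any alternative run, on either scale, and 352 of 370 values of single mitochondrial genes kept their direction. The count of all genes called moved beyond 1.5 times of its 228 with no filter on low values (346), scaling to the sum of all genes (511), the replicate block (394, with 0 mitochondrial genes called), the ratio of the mitochondrial to the nuclear sum as a covariate (36) and each library left out in turn (39 to 695, lowest without Cre+ library 2 and highest without Cre+ library 1). The covariate, which removes most of the mitochondrial total by construction, turned the log2 differences of mt-Rnr1 (0.11), mt-Rnr2 (0.0084), mt-Nd1 (0.033), mt-Nd2 (0.10), mt-Nd3 (0.17), mt-Nd4 (0.38) and mt-Cytb (0.36) above 0. Scaling to the sum of all genes did so for mt-Nd3 (0.10). On the scale of the mitochondrial sum, mt-Nd5 turned to 0.10 among females, and mt-Nd2 to -0.10 without mt-Co1 in the sum and to -0.058 without mt-Co1 and mt-Nd4, both added after seeing the data. With a library left out it ranged from -0.12 to 0.043 for mt-Nd1, from -0.23 to 0.026 for mt-Nd6 and from -0.42 to 0.10 for mt-Nd5. Without Cre+ library 4, the only one from a Cre+ male, the fitted difference is again that among females alone, which gave the 0.10 for mt-Nd5. The cause was not tested for the females or for the other libraries left out. The difference in share of complex I moved from 1.52 to -3.88 percentage points without mt-Co1 in the sum. Leaving out a library gave -17.5 to -6.07 points for all mitochondrial genes, 5.26 to 6.81 for complex III, -7.95 to -5.87 for complex IV and 2.38 to 3.31 for mt-Nd4. The groups stayed apart for complexes III and IV under every alternative run, and for mt-Nd4 in all but the sum without mt-Co1.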

Other observations

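mt-Nd6, the protein gene read from the other strand, was sorted by sex more than by genotype. It made up 0.113% of the mitochondrial sum in the Cre+ male and 0.0815% and 0.112% in the control males. The 6 libraries from females had 0.0374%, 0.0456% and 0.0527% in Cre+ hearts and 0.0504%, 0.0453% and 0.0637% in controls, all below each male. In the fit on the mitochondrial sum the log2 difference, male minus female, was 1.04 (95% confidence interval 0.49 to 1.59, unadjusted p = 0.00152, limma adjusted p = 0.162), which missed the threshold. On the deposited scale it was 0.22 (limma adjusted p = 0.863). The pattern was noticed after the values were seen.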
